A study of Rattus norvegicus with 4 samples.

Results

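The glutamate-only nuclei described here are neurons of the rat ventral tegmental area that carried transcripts of Slc17a6, the vesicular glutamate transporter VGLUT2, and no transcript of 9 genes that mark other neurons of the region. They were chosen by their own measured counts: a nucleus needed at least 2000 unique molecular identifiers (UMIs, counts of single RNA molecules), at least 2 UMIs of Slc17a6, and 0 UMIs of Gad1, Gad2, Slc32a1, Th, Slc6a3, C1ql1, Lmx1a, Sim1 and Foxb1. There were 370 such nuclei among 21606 deposited barcodes, of which 15296 had at least 2000 UMIs. They were compared with 918 GABA nuclei (at least 2 UMIs of Gad1, at least 1 of Slc32a1 and 0 of Slc17a6) and with 1108 other glutamate nuclei, which also had at least 2 UMIs of Slc17a6 and none of Gad1, Gad2 or Slc32a1, but had at least 1 UMI of Th, Slc6a3, C1ql1, Lmx1a, Sim1 or Foxb1.

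The tissue came from experimentally naive Sprague-Dawley rats aged 90 to 120 days, and single nuclei were profiled with a droplet method that reads the 3' end of each transcript. There were 2 libraries of female rats and 2 of male rats, each a pool of 3 animals, so the library was the replicate and variation between single animals was not measured. No group received a treatment. The 10 genes of the selection were left out of every test.

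The ventral tegmental area is best known for its dopamine neurons, which project to the striatum and cortex. It also holds GABA neurons and glutamate neurons, and some glutamate neurons share developmental regulators with dopamine neurons, such as Lmx1a and Lmx1b. Neighbouring hypothalamic and mammillary territory contributes further glutamate neurons, whose regulators include Sim1, Foxb1 and Nkx2-1.

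Of 1800 nuclei with at least 2 UMIs of Slc17a6, 370 (20.6%) passed the selection. Lmx1a excluded the most, 771 nuclei (42.8%), followed by C1ql1 with 532 (29.6%), Sim1 with 335 (18.6%) and Th with 282 (15.7%). At least 1 of the 3 GABA genes was present in 322 nuclei (17.9%). Members had to lack 9 transcripts, and shallow nuclei passed more often. Among Slc17a6 nuclei without GABA genes, which already lacked 3 of the 9, 47.3% were members at 2000 to 4000 UMIs (52 of 110). The share was 29.3% at 4000 to 8000, 21.1% at 8000 to 12000 and 15.6% above that (50 of 321). Median UMIs were 7118 in members, 8801 in the other glutamate nuclei and 7878 in GABA nuclei. How many members lacked an excluded transcript through depth alone was not tested.

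Members held 2 to 14 UMIs of Slc17a6, with a median of 3, and 163 of them (44.1%) held exactly 2. These 163 nuclei had a median of 6164 UMIs, and their summed level of 8 oligodendrocyte genes was 1282 CPM, the UMIs of a gene or list per 1000000 UMIs of the nuclei summed. The 328 nuclei just outside, with 1 UMI of Slc17a6, had a median of 4633.5 UMIs and 4739 CPM of the oligodendrocyte genes. Of the 6 members less than 500 UMIs above the depth threshold, 66.7% held at least 2 UMIs of Mog, a myelin gene. Of the 8 nuclei up to 500 UMIs below it that met the other conditions, 37.5% did. Neuron markers summed to 1066 CPM in those 6 members and to 22620 CPM in those 8 nuclei. They summed to 4390 CPM in members with exactly 2 UMIs of Slc17a6 and to 5061 CPM in members with more.

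Libraries held 19714338 to 25824289 UMIs in 3628 to 6955 barcodes. Female 1 gave 101 members (median 8249 UMIs), female 2 gave 60 (7829), male 1 gave 102 (7727) and male 2 gave 107 (5599). Values given as 4 numbers in a row below follow this order of libraries. Across libraries 36 barcode sequences occurred more than once, 4 members carried one, and 0 were shared between members of different libraries. Female 2 stood apart: across genes, the summed profile of its members correlated with those of the other libraries at 0.914 to 0.925, against 0.948 to 0.955 among the other 3.

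The label of glutamate neurons was checked with genes outside the selection. The 7 of 8 neuron markers found in the files summed to 4025 to 5201 CPM in members and 5363 to 5803 CPM in GABA nuclei. The other vesicular glutamate transporters were found in few members: with every nucleus thinned to 2000 UMIs, Slc17a7 (VGLUT1) was found in 0.464% ± 0.606 of members and Slc17a8 (VGLUT3) in 0.185% ± 0.371 (SD, n = 4 libraries), against 0.0677% and 0.159% in oligodendrocyte nuclei, which should lack both and whose median depth was 3067.5 UMIs. Unthinned shares were 0.912% for Slc17a7 and 0.743% for Slc17a8. Serotonin neuron genes summed to 1.15 to 10.0 CPM in members, and noradrenaline neuron genes to 0 to 1.98 CPM. The defining transporters Slc6a4 and Slc6a2 were at 0. Members were not free of glial RNA. The 8 oligodendrocyte markers summed to 713 to 1300 CPM in members, highest in female 2, against 450 to 964 CPM in GABA nuclei and 477 to 915 CPM in other glutamate nuclei, and 20 members (5.41%) held at least 2 UMIs of Mog, 7 of them in female 2 (11.7% of its members).

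As a share of nuclei with at least 2000 UMIs, members made up 2.9% (95% Wilson interval 2.39% to 3.51%) in female 1 and 1.5% (1.17% to 1.93%) in female 2. The males had 3.28% (2.71% to 3.97%) and 2.27% (1.88% to 2.73%). The intervals cover counting error only. The lowest share was that of female 2, and the sexes overlapped: the mean was 2.2% ± 0.986 in females and 2.78% ± 0.717 in males (SD, n = 2 each; exact permutation test, two-sided, p = 0.667). With 2 libraries against 2 the smallest p possible is 0.333. Without female 2 the sign of the difference turned, to 0.125 percentage points higher in females. With the selection applied after every nucleus was thinned to 2000 UMIs, the shares were 1.09%, 0.652%, 1.77% and 1.59%. The sexes did not overlap in that setting (exact permutation test, two-sided, p = 0.333, the smallest possible). For every GABA nucleus there were 0.449, 0.245, 0.421 and 0.519 members. The sort and the dissection can set such shares, and their part was not tested.

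Against GABA nuclei, glutamate-only nuclei had higher levels of the regulator Nkx2-1, the calcium channel subunit gene Cacna2d1, the peptide genes Cartpt and Adcyap1, and the neurotrophin gene Bdnf. They lacked, or nearly lacked, Pax3, Pax7, Gata3 and Tal1, regulators of GABA neuron groups, and the nicotinic receptor subunits Chrna2 and Chrna5. Another such regulator, Meis2, was far lower in them. The near absence of Pax3, Pax7, Gata3 and Tal1 was shared by the other glutamate nuclei. The test was edgeR's quasi-likelihood test on the UMI sums of each class in each library, with the library as a block. A gene was called at a Benjamini-Hochberg adjusted p under 0.05 with a fold change over 2. Of 11485 genes tested, 408 were called (3.55%), 175 higher in glutamate-only nuclei (1.52%) and 233 lower (2.03%). The median log2 fold change of all genes was 0.01. Counts of called genes in each list below are descriptive and stand beside this 3.55% of all genes. Without female 2 the number called was 428, and without female 1 it was 332. All log2 fold changes in the next paragraphs are glutamate-only over GABA with their SE, and adjusted p-values are from this edgeR test unless another comparison is named.

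**Figure D1:**
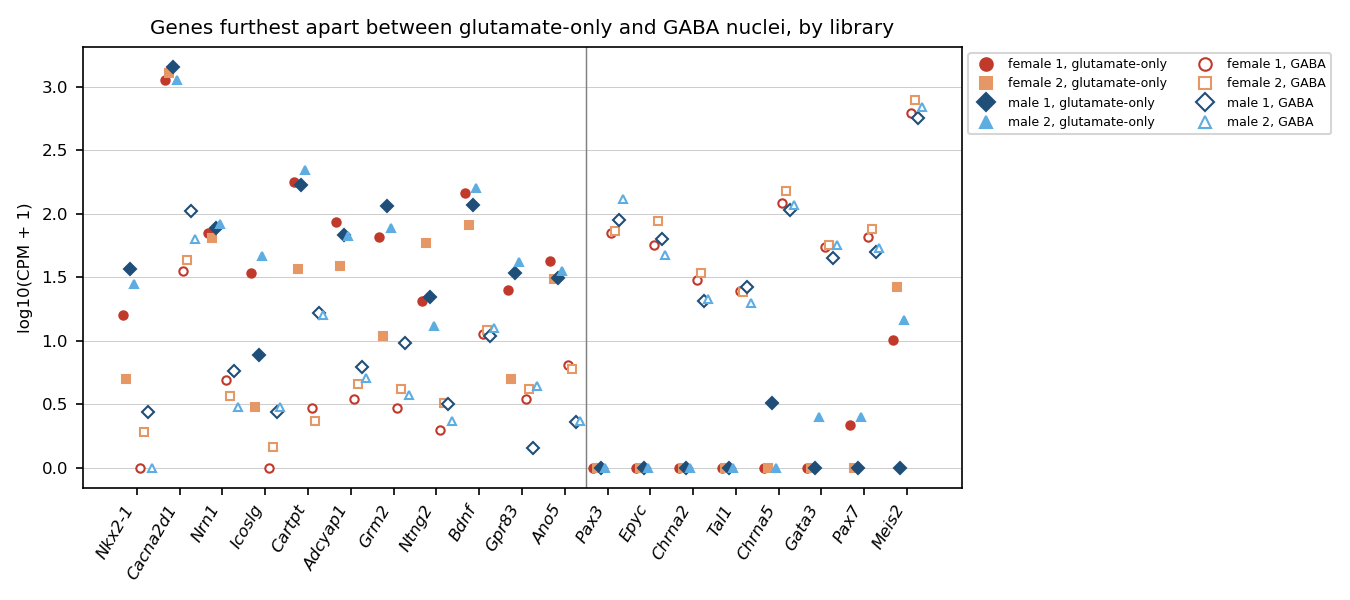
Level of 11 of the 12 genes with the largest increases (left of the line) and the 8 with the largest decreases (right) in glutamate-only nuclei against GABA nuclei, as log10(CPM + 1). Each point is 1 library, filled for glutamate-only and open for GABA nuclei; the filled points of Cacna2d1 lie between 1126 and 1431 CPM and the open ones between 34.7 and 105 CPM, while Pax3, Epyc, Chrna2 and Tal1 are at 0 in all 4 glutamate-only sums.

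Cacna2d1 encodes an auxiliary subunit of voltage-gated calcium channels that also binds gabapentin. It stood at 1136, 1294, 1431 and 1126 CPM in members, and in GABA nuclei of the same libraries at 34.7, 42.2, 105 and 62.3 CPM. The libraries of the 2 classes were far from overlapping, with a log2 fold change of 4.39 ± 0.16 (adjusted p = 6e-13). Other glutamate nuclei had 1273 to 1614 CPM, and the log2 fold change of members against them was -0.26 ± 0.13 (adjusted p = 0.487), which did not pass the test.

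Among 48 tested of 106 listed regional transcription factors, 7 were higher and 19 lower in glutamate-only nuclei, and the list's median log2 fold change was -0.52 (also -0.52 with the 4 genes at 0 in members set to their bound). Nkx2-1, a factor of the ventral hypothalamus, was uneven between libraries. Its members' values were 14.9, 3.96, 35.6 and 27.1 CPM, against 0 to 1.72 CPM in GABA nuclei (log2 fold change 4.65 ± 0.55, adjusted p = 5.17e-06), and female 2 was the low library, with 2 UMIs.

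Called regulators on the higher side also included Lmx1b (log2 fold change 3.4 ± 0.61), Onecut2 (2.52 ± 0.34), Bcl11a (1.71 ± 0.13), Nr4a2 (1.68 ± 0.49) and Ebf3 (1.17 ± 0.19). The first and the fourth are dopamine lineage factors, and their levels in members were low, 1.98 to 13.5 CPM for Lmx1b and 3.45 to 12.2 CPM for Nr4a2. The call of Nr4a2 was lost when female 2, male 1 or male 2 was left out (adjusted p = 0.084 to 0.24). Foxp2 and Ebf1 had high levels without reaching the fold of the call: Foxp2 had 180 to 517 CPM in members and 120 to 213 CPM in GABA nuclei, and Ebf1 had 237 to 380 CPM and 129 to 180 CPM.

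On the lower side, Pax3, a dorsal neural tube factor, had 0 UMIs in all members and 69.9, 72.3, 88.8 and 129 CPM in GABA nuclei. Against a floor of 3 counts over all members (1.02 CPM), this is at least 85.2-fold lower. Tal1, a factor that directs GABA identity in the midbrain, was at 0 in all members too, at least 22.7-fold lower, and its relative Gata2 was at least 13.4-fold lower. Gata3, which acts with them, had 1 UMI among all members, in male 2, and 43.5 to 55.5 CPM in GABA nuclei (log2 fold change -6.97 ± 0.51, adjusted p = 6.92e-09). Without male 2 members were at 0, and the fitted value of -9.49 is no bound. The second paired-box factor of the list, Pax7, had 2 UMIs in members and 49.1 to 75.5 CPM in GABA nuclei (-6.31 ± 0.39, and -6.92 without male 2). Other glutamate nuclei were near 0 as well. They had Pax3 at 0 to 1.3 CPM, Tal1 at 0 to 0.74, Gata3 at 0 to 0.646, Pax7 at 0 to 0.37 and Gata2 at 0. None of these genes was called between the glutamate classes.

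Meis2 had the highest level of these factors in GABA nuclei, at 616, 782, 563 and 694 CPM. In members it stood at 9.19, 25.7, 0 and 13.5 CPM, again without overlap (log2 fold change -5.98 ± 0.38, adjusted p = 9.67e-10). Of its UMIs in members, 13 came from 1 nucleus. Meis1 was lower as well (-3.43 ± 0.17), as were 4 Iroquois factors: Irx1 (-3.35), Irx5 (-2.08), Irx3 (-1.94) and Irx2 (-1.15). Sox6 (-2.53 ± 0.30) and Ebf2 (-2.68 ± 0.21) were lower in members, although both were among the leading genes of a cluster of members. Epyc, a small proteoglycan of the extracellular matrix, was at 0 in members and at 46.0 to 87.1 CPM in GABA nuclei, at least 63.3-fold lower.

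Of 17 tested of 36 listed peptide genes, 5 were higher in glutamate-only nuclei, 3 were lower and the median log2 fold change was -0.21. Cartpt, the precursor of the CART peptides, stood at 176, 35.6, 169 and 219 CPM in members and at 1.96, 1.35, 15.5 and 14.9 CPM in GABA nuclei (4.2 ± 0.32, adjusted p = 1.36e-08). Its low library was female 2, which still lay above all GABA values. Bdnf, brain-derived neurotrophic factor, had 144, 81.1, 117 and 159 CPM in members and 9.91 to 11.5 CPM in GABA nuclei (3.53 ± 0.16, adjusted p = 1e-11). Adcyap1, the precursor of the peptide PACAP, had 37.6 to 85.0 CPM against 2.45 to 5.17 CPM (4.07 ± 0.24). Cck, cholecystokinin, had 27.7 to 150 CPM against 5.84 to 19.6 CPM (3.25 ± 0.23). Crh, corticotropin-releasing hormone, had 23.0, 15.6 and 24.0 CPM in female 1, male 1 and male 2 but 1.98 CPM in female 2, below the 4.49 CPM of that library's GABA nuclei (1.77 ± 0.44, adjusted p = 0.0114).

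Somatostatin (Sst, -1.69 ± 0.35), prepronociceptin (Pnoc, -1.67 ± 0.24) and the secretory granule gene Vgf (-1.5 ± 0.22) were lower in members. Penk, the enkephalin precursor, did not pass the test (0.56 ± 0.27, adjusted p = 0.252), with 171, 27.7, 167 and 219 CPM in members and 52.8 to 151 CPM in GABA nuclei. Tac1, the substance P precursor, had 154 to 331 CPM in members and 111 to 240 CPM in GABA nuclei (0.39 ± 0.24, adjusted p = 0.392). For both, the libraries of the classes overlapped.

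Of 12 tested genes of glutamate release and uptake, 0 were higher and Slc17a8 was lower, at 0 to 3.45 CPM in members and 8.32 to 15.7 CPM in GABA nuclei (-3.36 ± 0.71). All 3 Slc17a8 UMIs of members came from female 1, without which the log2 fold change was -7.45, a fitted value of sums at 0 and no bound.

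Of 17 tested ionotropic glutamate receptor genes 1 was called, against 3.55% of all genes. It was Gria4, lower at 1282 to 2047 CPM against 3092 to 4129 CPM (-1.14 ± 0.08, adjusted p = 2.71e-09). Of 6 tested metabotropic glutamate receptors, Grm2, an inhibitory autoreceptor, was higher, at 64.3, 9.89, 115 and 76.6 CPM against 1.96 to 8.62 CPM (3.94 ± 0.28, adjusted p = 4.18e-09). Its low library was again female 2. Of 17 tested GABA and glycine receptor genes, Gabra5 (1.06 ± 0.20) and Gabra4 (1.02 ± 0.19) were higher and Gabrd (-2.23 ± 0.54) was lower. Female 2 differed for Gabra4 and Gabra5, where its members had 47.5 and 35.6 CPM and its GABA nuclei 69.6 and 44.9 CPM. Both calls lay near the fold of 2 and were lost without male 1, at 0.92 for Gabra4 and 0.66 for Gabra5. The call of Gabra4 was also lost without female 1 (0.92) and without male 2 (0.85).

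Of 19 tested monoamine and acetylcholine receptor genes, 3 were higher and 5 lower. Chrna5, a nicotinic subunit known in this region for its part in nicotine intake, had 2 UMIs in members, both in male 1, and 106 to 150 CPM in GABA nuclei (-7.33 ± 0.33, adjusted p = 1e-11). Without male 1 members were at 0, and the fitted value of -10.75 is no bound. Chrna2 was at 0 in members, at least 25.4-fold lower, and Chrna3 had 0 to 4.45 CPM against 13.4 to 22.9 CPM (-3.09 ± 0.47, and -4.25 without male 1). The serotonin receptor gene Htr2a was higher (27.6, 57.4, 59.0 and 78.1 CPM against 13.0 to 17.2 CPM, 1.81 ± 0.21), and Htr2c was lower (293 to 579 CPM against 823 to 1129 CPM, -1.14 ± 0.15). Drd3 (1.75 ± 0.35) and Adra2a (1.42 ± 0.43) were the other higher genes, at 7.91 to 25.5 and 9.02 to 14.5 CPM in members.

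Of 24 tested peptide and hormone receptor genes, Npsr1, the neuropeptide S receptor (2.70 ± 0.45, and 3.42 without male 1), and the orexin receptor Hcrtr2 (1.16 ± 0.14) were among the higher ones. The mu opioid receptor Oprm1 was lower, at 35.6 to 67.6 CPM in members and 143 to 222 CPM in GABA nuclei (-1.80 ± 0.15, adjusted p = 3.91e-08), and so was the neurokinin receptor Tacr3 (-1.47 ± 0.19). Gpr83, a G protein-coupled receptor, was among the 12 largest increases (3.41 ± 0.45), with 24.1, 3.96, 33.4 and 40.6 CPM in members. Its log2 fold change was 4.04 without female 2 and 2.78 without male 1.

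Genes that organise synapses held 6 higher and 1 lower of 39 tested. Ntng2, a netrin-G that sits on axons, had 19.5, 57.4, 21.1 and 12.0 CPM in members against 0.978 to 2.25 CPM (3.87 ± 0.39, adjusted p = 7.1e-07), and female 2 was its highest library. Cbln1 (2.79 ± 0.39), Nxph4 (2.59 ± 0.23), Cbln2 (2.44 ± 0.24), C1ql2 (1.58 ± 0.25) and Ntng1 (1.26 ± 0.12) were also higher. Cbln1, a secreted cerebellin that bridges synapses, had 23.0, 24.5 and 27.1 CPM in 3 libraries and 1.98 CPM in female 2. Nrxn3, a presynaptic neurexin, was lower at 2099 to 3327 CPM against 9680 to 10261 CPM (-1.86 ± 0.09, adjusted p = 2.09e-11). Of 20 tested cadherin genes 0 were called by edgeR and 0 by DESeq2, while 13 had an unadjusted p under 0.05 in edgeR. Over all genes 2308 of 11485 had such a p.

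Of 29 tested potassium channel genes 1 was called, against 3.55% of all genes: Kcnj6, a GIRK channel subunit, at 48.2 to 64.6 CPM against 22.3 to 32.3 CPM (1.06 ± 0.17), and leaving out female 2 or male 2 took its log2 fold change to 1.00 and 0.94. Of 27 tested sodium, calcium and HCN channel genes, Cacna1h (-1.13 ± 0.19) was called beside Cacna2d1, and its call was lost without male 2 (-0.92) and with at least 3 UMIs of Slc17a6 (-0.98). Calb1, calbindin, had 83.8, 7.91, 84.6 and 90.2 CPM in members and 8.80 to 19.4 CPM in GABA nuclei (2.47 ± 0.25, adjusted p = 8.14e-07), so that female 2 lay below all GABA values and the other 3 libraries lay far above. Nrn1, a surface protein that promotes neurite growth, was even across libraries, at 63.3 to 82.7 CPM against 2.03 to 4.74 CPM (4.37 ± 0.21, adjusted p = 1.39e-11). Of the 12 largest increases, Icoslg, an immune costimulatory ligand, was the least even, at 33.3, 1.98, 6.68 and 45.1 CPM (4.31 ± 0.77), and its log2 fold change was 3.55 without female 1 and 4.99 without male 1. Ano5, a membrane protein of the anoctamin family, was also among them (3.35 ± 0.29).

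Against other glutamate nuclei far fewer genes were called. The fit was the same, and 35 of 11485 genes passed (0.305%), 6 higher in glutamate-only nuclei (0.0522%) and 29 lower (0.253%). The rule excluded Lmx1a, Th, Slc6a3 and C1ql1, so genes of the same lineage were not chosen independently of it. Lower genes included 4 of 8 tested dopamine neuron genes outside the selection (Nr4a2, Ddc, Aldh1a1 and Ret), whose list had a median log2 fold change of -1.18 against 0.00 over all genes. The calls of Nr4a2 and Ddc held in all alternatives run, while that of Ret was lost in 4 of 14, among them without female 1 (-1.0) and without male 2 (-1.15), and Aldh1a1 was at -0.07 with at least 3 UMIs of Slc17a6. The dopamine genes summed to 65.5 to 139 CPM in members, 227 to 295 CPM in other glutamate nuclei and 94.3 to 127 CPM in GABA nuclei.

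Lmx1b, a regulator of midbrain floor plate neurons, stood at 4.59, 1.98, 7.79 and 13.5 CPM in members and at 32.5, 46.2, 36.5 and 43.3 CPM in other glutamate nuclei (-2.44 ± 0.28, adjusted p = 7.39e-05 by edgeR). It therefore lay between GABA nuclei and other glutamate nuclei, and the libraries of the 2 glutamate classes did not overlap. Nr4a2, a dopamine lineage factor, had 3.45 to 12.2 CPM against 24.6 to 38.4 CPM (-2.22 ± 0.29). Ddc, the second enzyme of dopamine synthesis, had 13.8, 17.8, 43.4 and 18.0 CPM against 69.1 to 109 CPM (-1.77 ± 0.25). Male 1 was its high library, and without it the log2 fold change was -2.37.

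The nuclear factor I genes Nfia (-1.78 ± 0.17, 77.1 to 119 CPM in members against 257 to 424 CPM) and Nfib (-1.49 ± 0.17) were lower, as were the early B-cell factors Ebf2 (-1.59 ± 0.23) and Ebf3 (-1.22 ± 0.15) and the broadly expressed factor Tcf4 (-1.20 ± 0.10, adjusted p = 2.62e-06). Ntn1, the secreted guidance cue netrin-1, had 18.4, 25.7, 11.1 and 28.6 CPM in members and 64.0 to 95.0 CPM in other glutamate nuclei (-2.04 ± 0.20, adjusted p = 9.23e-06). It was the 1 called of 37 tested guidance genes, against 0.305% of all genes. Matrix genes Smoc1 (-2.28 ± 0.35) and Adamts2 (-1.34 ± 0.12) were lower too. The calls of Aldh1a1, Cbln1, Wnt2 and Zfp536 were lost in at least 5 of the alternatives tried for each.

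**Figure D2:**
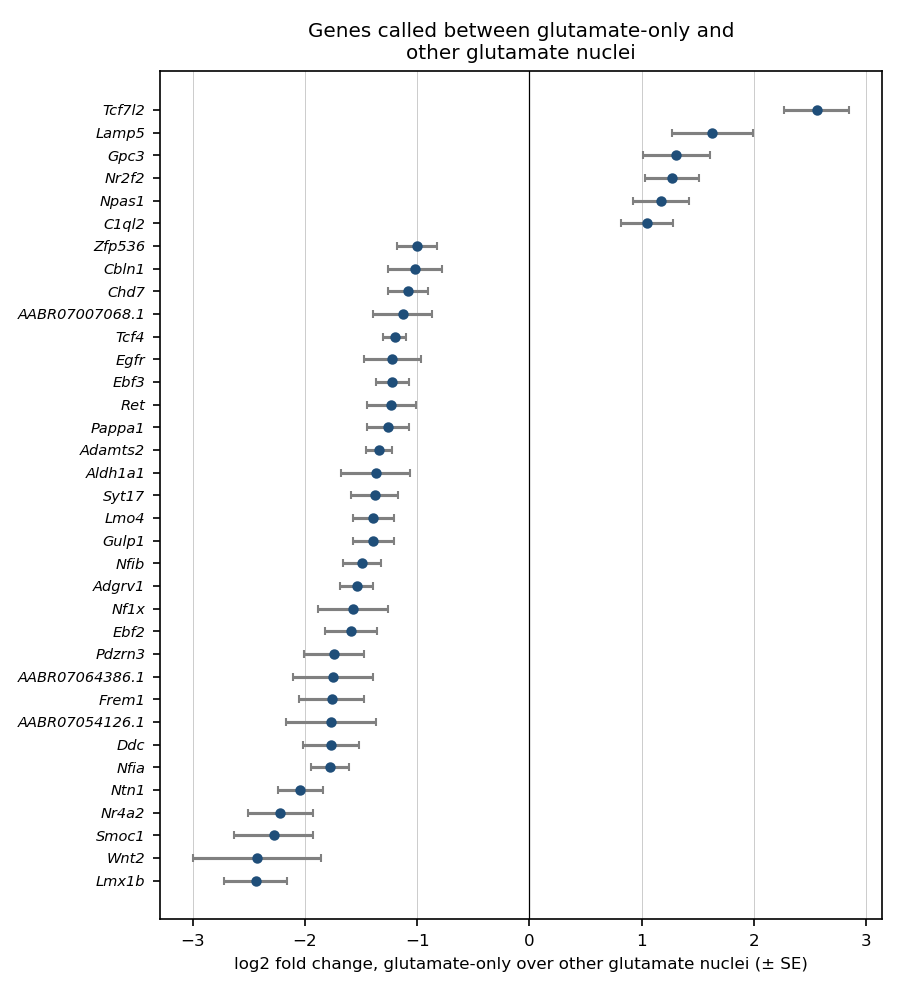
Log2 fold change of the 35 genes called between glutamate-only and other glutamate nuclei, with SE from the edgeR fit over 4 libraries. The 6 genes right of 0 are higher in glutamate-only nuclei, from 1.05 for C1ql2 to 2.56 for Tcf7l2, and the 29 left of 0 reach -2.44 for Lmx1b.

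Tcf7l2, a Wnt pathway factor of thalamic and habenular neurons, was highest above the other glutamate nuclei, with a log2 fold change of 2.56 ± 0.29 (adjusted p = 5.19e-05). Its members' values were 116, 63.3, 33.4 and 13.5 CPM, against 14.4, 9.11, 9.05 and 4.36 CPM in other glutamate nuclei, so it was higher within each library while the classes overlapped across libraries. The gene is also made by oligodendrocytes, where 8.24% of thinned nuclei held a UMI. The share was 6.87% ± 5.23 in members, 5.78% ± 1.53 in GABA nuclei and 1.10% ± 0.636 in other glutamate nuclei (SD, n = 4 libraries). Members thus lay close to GABA nuclei, and other glutamate nuclei were the low class. Outside the member cluster led by oligodendrocyte genes the members' levels were 111, 66.6, 35.0 and 14.0 CPM. This is a description and no test, since the same counts formed the cluster. The part of free oligodendrocyte RNA in the level of the other members was not tested. Members' Tcf7l2 UMIs lay in 24 of 101, 7 of 60, 7 of 102 and 4 of 107 nuclei. Lamp5 (1.63 ± 0.36), Gpc3 (1.31 ± 0.30), Nr2f2 (1.27 ± 0.24), Npas1 (1.17 ± 0.25) and C1ql2 (1.05 ± 0.23) were the other 5. Of these, Nr2f2 lost its call in 1 of 14 alternatives, without female 1, and the others lost theirs in 5 to 8.

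Of 17 tested peptide genes, 0 were called between the glutamate classes by edgeR and 0 by DESeq2. An unadjusted p under 0.05 in edgeR was found for 3 of them, and for 1244 of all 11485 genes. The log2 fold changes were 0.32 ± 0.21 for Cartpt, 0.22 ± 0.11 for Bdnf, 0.15 ± 0.16 for Cck and 0.38 ± 0.26 for Penk (adjusted p = 0.498 to 0.807). Female 2 was also the low library in other glutamate nuclei. Cartpt had 55.3 CPM there against 91.8 to 174 CPM in the other libraries, Penk 31.9 CPM against 109 to 156 CPM, and Nkx2-1 3.91 CPM against 11.8 to 21.4 CPM.

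Members were divided into clusters as a description, with no correction for library. Whether they form distinct groups was not tested. Clustering of the 370 nuclei on their own variable genes gave 12 clusters of 8 to 71 nuclei (8 clusters at a resolution of 0.5 and 16 at 2, against the main value of 1). Clusters are described by number and leading genes, defined by CPM ratio to all other members, and no test is given because the same counts formed them.

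**Figure D3:**
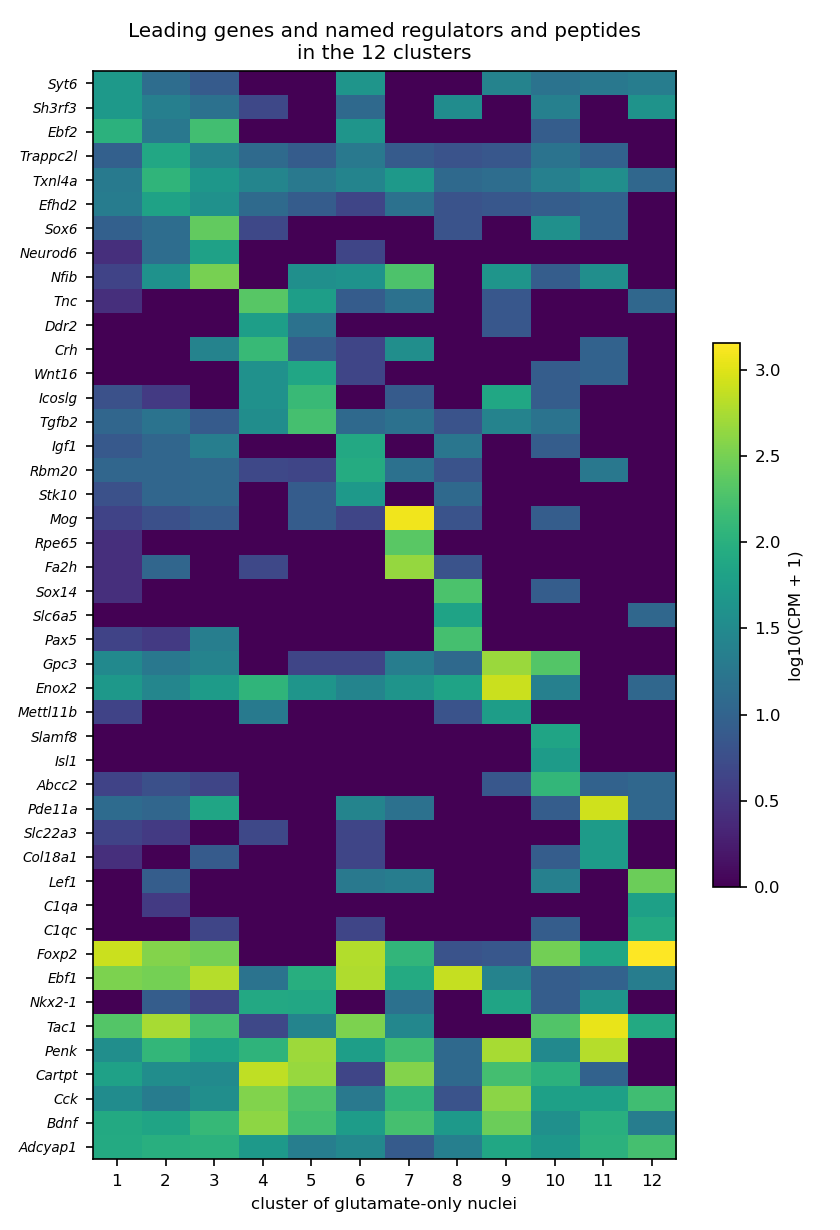
Level of the 3 leading named genes of each cluster, and of 9 regulators and peptide genes, in the 12 clusters of glutamate-only nuclei, as log10(CPM + 1) of the summed counts. Colour runs from dark (0) to yellow; Mog stands out in cluster 7 (1200 CPM) and Pde11a in cluster 11 (842 CPM), and Cartpt is highest in clusters 4 and 5 (699 and 458 CPM).

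Cartpt was highest in cluster 4 (39 nuclei) and cluster 5 (30 nuclei), while Adcyap1 was at 49.1 and 21.6 CPM there and at 83.6 to 106 CPM in clusters 1 to 3. In cluster 4 Cartpt stood at 699 CPM against 106 CPM in other members, Cck at 363 against 77.0 CPM, Bdnf at 416 against 99.8 CPM and Crh at 132 against 5.98 CPM. Its leading genes were the matrix gene Tnc (212 against 8.59 CPM) and the collagen receptor Ddr2. Cluster 5 was led by Wnt16, Icoslg and Tgfb2 (166 against 13.1 CPM), with Penk at 494 CPM, Cartpt at 458 CPM, and Onecut2 at 108 CPM. Nkx2-1 was highest in these 2 clusters and cluster 9, at 79.4, 75.8 and 68.4 CPM. Cluster 9 (20 nuclei, 0 from female 2) was led by the proteoglycan gene Gpc3 (473 against 23.7 CPM) and Enox2, with Cck at 398, Penk at 541 and Htr2a at 261 CPM.

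Cartpt and its partners met in single nuclei. Of 104 members with a Cartpt UMI, 69 (66.3%) also held Cck and 77 (74.0%) held Bdnf, against 17.3% and 34.6% of members without Cartpt, at median depths of 7543 and 6932 UMIs. Of 50 members with Nkx2-1, 34 (68.0%) held Cartpt, against 21.9% of the rest. Nkx2-1 and Foxp2, a forkhead factor, were never found together: 0 of 50 nuclei with Nkx2-1 held Foxp2, against 32.5% of nuclei without Nkx2-1. After thinning to 2000 UMIs, Cartpt was in 15.7% ± 7.45 of members, 1.29% of GABA nuclei and 0.974% of oligodendrocyte nuclei (unthinned 26.4%, 3.46% and 1.62%), and Bdnf in 19.4% ± 4.7, 2.03% and 0.4% (unthinned 44.9%, 6.95% and 0.848%; SD, n = 4 libraries). The GABA share of Cartpt lay close to that of the oligodendrocyte nuclei.

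Cluster 1, the largest with 71 nuclei, held Foxp2 at 783 against 263 CPM and Satb1 at 119 against 52.1 CPM, and its leading genes included the synaptotagmin gene Syt6 (in 13 of its nuclei), Ebf2 (in 9) and Prlr, the prolactin receptor (181 against 49.1 CPM, in 31). Cluster 2 (53 nuclei) had Tcf7l2 at 175 against 39.8 CPM, Tac1 at 543 against 171 CPM and the glycolytic gene Aldoc at 477 against 122 CPM. Cluster 3 (45 nuclei) was led by Sox6 (246 against 6.78 CPM, from 9 nuclei), Neurod6 and Nfib (320 against 29.4 CPM), with Nfia at 384 CPM. Cluster 6 (28 nuclei) was led by Igf1, with Syt2 at 162 and Npas1 at 173 CPM, and C1ql2 at 140 against 21.8 CPM. Npas1 and C1ql2 here, and Gpc3 in cluster 9, were among the 6 genes called above the other glutamate nuclei.

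Cluster 8 (21 nuclei, 12 of them from female 2) stood out by Shisa6, an AMPA receptor partner, at 3815 against 106 CPM in 20 of 21 nuclei. It also held Sox14 (180 against 0.725 CPM), Pax5 (164 against 3.26 CPM), Ntng2 (235 against 10.9 CPM), Pnoc at 262 CPM and the glycine transporter gene Slc6a5 (65.5 against 0.363 CPM, in 5 nuclei). Sox14 and Slc6a5 mark GABA and glycine neurons, while the GABA genes of the selection were at 0 there by rule. Cluster 10 (18 nuclei, 15 from male 1 and 0 from females) held Isl1 in 5 nuclei and Calcr in 2, and its first leading gene, Slamf8, came from 1 nucleus.

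**Figure D4:**
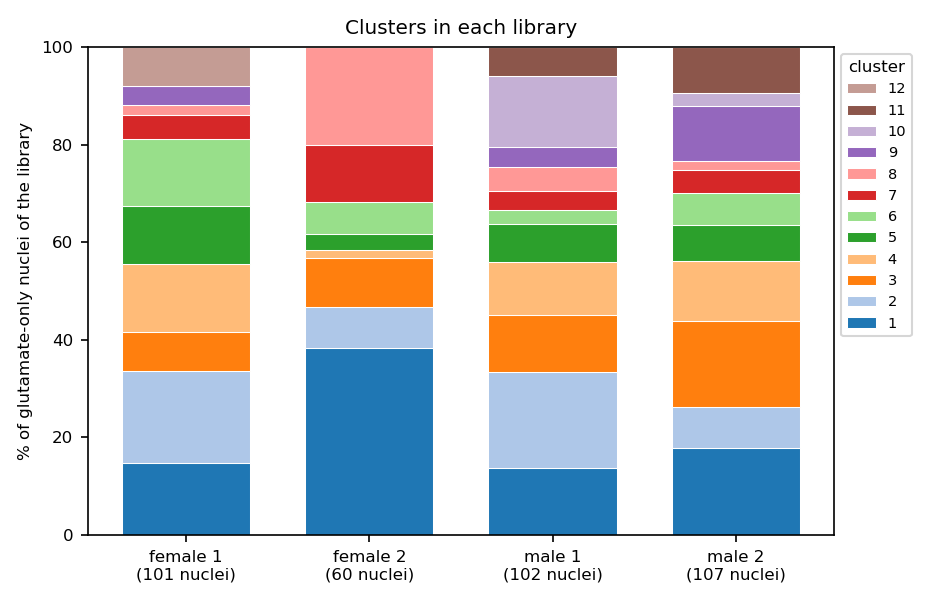
Share of each library's glutamate-only nuclei in the 12 clusters, as stacked percentages that start at 0. Female 2 has 23 of its 60 nuclei in cluster 1 and 12 in cluster 8 and 0 in clusters 9 to 12; clusters 10 and 11 hold nuclei of male libraries alone and cluster 12 of female 1 alone.

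Cluster 7 (21 nuclei) was led by oligodendrocyte genes. Mog stood at 1200 against 3.93 CPM, and the oligodendrocyte list at 13336 CPM against 170 to 338 CPM in the other clusters. Slc17a6 was at 402 CPM there, a level that says little, since the rule required at least 2 UMIs of it in every member. The neuron markers were at 4494 CPM in cluster 7, within the range of the other clusters, and its nuclei had a median of 4046 UMIs. Of its nuclei, 20 held at least 2 UMIs of Mog and 6 were among the highest doublet scores. Cluster 12 (8 nuclei, all female 1) was led by Lef1, Etv1 and Bnc2, with Foxp2 at 1419 and Tcf7l2 at 309 CPM. It also had the complement genes C1qa and C1qc of microglia, C1qa from 1 nucleus, and a microglia list sum of 154 CPM against 0 to 27.7 CPM elsewhere.

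The unequal make-up of the libraries ran beside the low values of female 2. Female 2 had 1 nucleus in cluster 4, 2 in cluster 5 and 0 in cluster 9, against 4 to 14 in each of the other libraries. The part of this make-up in the differences between libraries was not tested.

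Between the sexes, 8 of 9287 genes were called in glutamate-only nuclei at an adjusted p under 0.05 by edgeR (0.0861%), 6 higher in males and 2 higher in females, and 374 genes had an unadjusted p under 0.05. Among the 6 were the Y-linked genes Eif2s3y (0 in both female libraries, 81.2 and 84.2 CPM in male ones) and Kdm5d (2.3 and 3.96 CPM against 135 and 85.7 CPM), Ddx3 as the files name it (1.15 and 0 against 90.1 and 114 CPM), and 2 unnamed genes, AC241873.1 and AC239701.4. AABR07039356.2 was found in females alone. These check the labels of the libraries. The remaining genes were Bnc2 and Pde11a. The number of calls was 272 without female 1 and 20 without female 2.

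**Figure D5:**
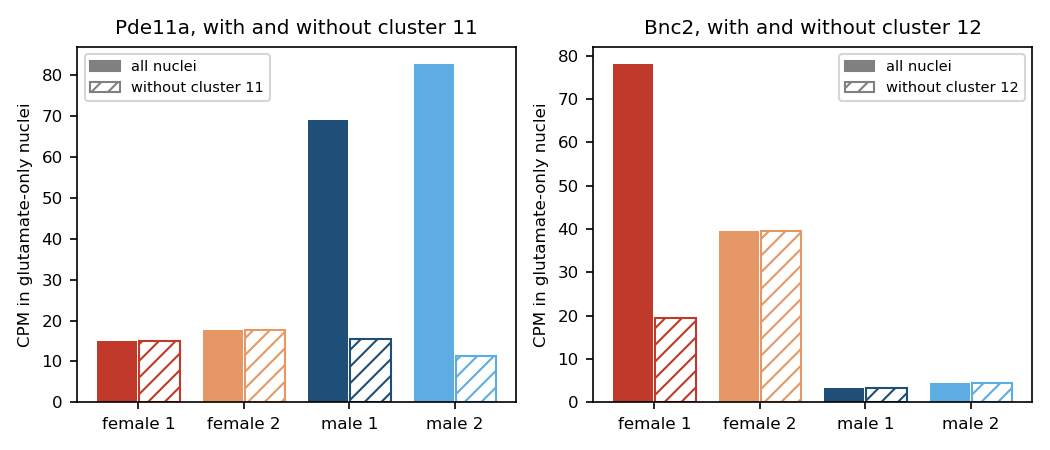
CPM of Pde11a (left) and Bnc2 (right) in glutamate-only nuclei of each library, with all nuclei (solid bars) and without the cluster that held most of the gene's UMIs (hatched bars). Without cluster 11 Pde11a lies between 11.4 and 17.8 CPM in all 4 libraries; without cluster 12 Bnc2 is at 19.4, 39.6, 3.34 and 4.51 CPM, as a description, since the same counts formed the clusters.

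Pde11a, a phosphodiesterase that breaks down cyclic nucleotides, had 14.9 and 17.8 CPM in the female libraries, and the male libraries had 69.0 and 82.7 CPM (log2 fold change, female minus male, -2.22 ± 0.32, adjusted p = 0.0191 by edgeR). The sexes did not overlap. Of the males' 62 and 55 UMIs, 49 and 48 lay in cluster 11, which held 6 and 10 nuclei of the male libraries and 0 of the female ones. Outside it the values were 14.9, 17.8, 15.6 and 11.4 CPM, which is a description and no test, since Pde11a was the first leading gene of that cluster and the same counts formed it. Cluster 11 also had Tac1 at 1120 CPM, Penk at 634 CPM and the synaptic vesicle gene Synpr at 720 CPM.

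Bnc2, a zinc finger factor, counted 68 and 20 UMIs in the female libraries and 3 in each male one (3.94 ± 0.52, adjusted p = 0.00932 by edgeR). In female 1, 53 of its 68 UMIs lay in cluster 12, and the highest count in 1 nucleus of the library was 31. In female 2, 15 of the 20 UMIs came from 1 nucleus of 3 that held any. Other glutamate nuclei had Bnc2 at 36.2, 76.2, 34.6 and 71.9 CPM and GABA nuclei at 7.83, 1.8, 3.02 and 17.6 CPM. The sexes overlapped in both of these classes. The calls of Bnc2 and Pde11a were lost with at least 3 UMIs of Slc17a6 (adjusted p = 0.29 for both by edgeR). That of Pde11a was also lost after thinning to 2000 UMIs (-2.61, adjusted p = 0.46 by edgeR) and without male 2 (-2.08). That of Bnc2 was also lost without male 1 (3.69).

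The difference between glutamate-only and GABA nuclei was also compared between the sexes. This interaction came from a separate edgeR fit of the glutamate-only and GABA sums, with the library as a block. Of 10191 genes, 3 were called (0.0294%): Pde11a (-2.64 ± 0.32, adjusted p = 0.00296), Apod (1.70 ± 0.22, adjusted p = 0.00438) and AABR07046961.1 (2.60 ± 0.41, adjusted p = 0.0283). In GABA nuclei Pde11a was at 85.1, 108, 58.6 and 88.6 CPM, so glutamate-only nuclei lay below them in both female libraries and within their range in both male ones. Other glutamate nuclei had 28.5, 26.7, 60.4 and 72.9 CPM. Apod is a lipid carrier made by oligodendrocytes, and AABR07046961.1 was the first leading gene of cluster 7. In members both were highest in female 2 (233 and 93.0 CPM). In GABA nuclei both were lower in the female libraries than in the male ones. Apod was there at 55.8, 86.7, 138 and 104 CPM and AABR07046961.1 at 10.3, 13.9, 34 and 42.6 CPM. Among members outside cluster 7, Apod was at 31.3, 21.5, 24.5 and 29.5 CPM and AABR07046961.1 at 0 to 4.66 CPM. This is again a description, since the same counts formed the cluster. DESeq2 called 0 genes in this comparison, with 60 at an unadjusted p under 0.05.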

How the data were processed

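Single nuclei of 4 libraries were sequenced, and the deposited files give UMI counts for every gene in every barcode, as whole numbers that were not scaled. The submitters' processing notes name Cell Ranger and the rn6 genome build, and the matrix headers name software version 3.0.2. No removal of free RNA or doublets by the authors is recorded in the labels. The members and gene lists were chosen with earlier results of these data known. Every deposited barcode was eligible. Counts of the nuclei in a class were added up within each library and fitted with edgeR 4.0.16 in R 4.3.3 (TMM scaling, its low-count filter, Benjamini-Hochberg adjustment). Classes came from the same animals, so the library was a block; the sex test had none. Each SE was obtained by dividing the fold change (log2) by the root of its F statistic. DESeq2 1.42.0 was an alternative. Members were clustered with scanpy 1.11.5 and leidenalg 0.10.2 (1500 variable genes, 20 components, 10 neighbours, resolution 1). Doublets were scored with Scrublet, and the highest 0.8% per 1000 barcodes were removed in an alternative. For detection, nuclei were thinned to 2000 UMIs. A floor of 3 counts stands for 0. Shares were compared by exact permutation (scipy 1.17.1). Files name genes by symbol and Ensembl identifier, and 16 of 526 listed symbols were not analysed here; near-identical copies could share reads.

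Named genes were the 12 largest increases and 8 largest decreases of each class comparison among called genes with a symbol, at least 20 CPM in the higher class and 1 direction in all 4 libraries, up to 4 called genes of each list, the transmitter and peptide genes, leading cluster regulators, up to 6 sex calls of lowest p and up to 5 leading genes per cluster with at least 50 CPM. Other named genes were chosen after their values were seen. Some genes that the rule names are not reported here. Simulated counts held 200 changed genes, drawn from those with at least 200 UMIs, at a single fixed spread between sums. They were called at an adjusted p under 0.05 with no minimum fold. Recovered were 89.5% in the comparison with GABA nuclei (11440 genes) and 92% in that with other glutamate nuclei (11434). Between the sexes 81% were recovered (9248) and in the interaction 50% (10197), with false calls of 3.16% to 8.26%. These rates do not cover the minimum fold of the class comparisons or genes with fewer UMIs.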

Additional observations from a re-analysis of the deposited data

Results flagged for a closer look

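For 3 genes the difference between glutamate-only and GABA nuclei differed between the sexes in the interaction test (log2 fold change, female minus male): Pde11a at -2.64, Apod at 1.7 and AABR07046961.1 at 2.6. Most male UMIs of Pde11a lay in cluster 11, whose 16 nuclei came from male libraries. Most member UMIs of the other 2 genes lay in cluster 7, which was led by oligodendrocyte genes. In GABA nuclei both genes were lower in the female libraries than in the male ones. Without nuclei of at least 2 Mog UMIs the log2 fold change of Apod was 0.16.

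Among 46 values in the members of the 4 libraries, 6 had 1 library far from the other 3. Chance flags about 1 in 20 for continuous values, a rate that does not hold for sums mostly at 0. Sums at 0 in 3 libraries are flagged by any UMI in the other, as for Chrna5, Gata3 and the noradrenaline list. Chrna5 had 2.23 CPM in male 1 and 0 elsewhere, and Gata3 had 1.5 CPM in male 2 and 0 elsewhere. Ddc had 43.4 CPM in male 1. The serotonin neuron list summed to 10.0 CPM in male 1, of which Slc22a3, a transporter gene among the leading genes of cluster 11, made up 8.9 CPM. The noradrenaline neuron list summed to 1.98 CPM in female 2, and the astrocyte list to 25.7 CPM in female 2, the lowest of the 4.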

How the results depend on the processing

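Genes called against GABA nuclei numbered 256 with nuclei thinned to 2000 UMIs, against 408, and 332 to 428 with 1 library left out. Without the replicate block they were 359 and with only the 2 classes in the fit 325. Against other glutamate nuclei 35 genes were called, 89 with no filter on low counts, 59 with the highest doublet scores removed (23 higher and 36 lower), 21 without the replicate block and 29 to 40 with 1 library left out. After thinning the split was 19 higher and 20 lower, against 6 and 29. Between the sexes 8 genes were called, 32 with no filter, 5 with at least 3 UMIs of Slc17a6, 4 after thinning and 6 to 272 with 1 library left out. With the replicate number as a block they were 9; the labels give no pairing of the sexes (correlation of deviations of female 1 and male 1, 0.106 over 9288 genes). The interaction gave 3 calls, 49 with no filter, 0 with DESeq2 and 0 by edgeR with at least 3 UMIs of Slc17a6 (60 and 487 genes at an unadjusted p under 0.05), 1 with at least 4000 UMIs, after thinning, with the highest doublet scores removed and without nuclei of 2 or more Mog UMIs, and 5 to 209 with 1 library left out. The Mog setting was chosen after seeing the data. The member share differed by -0.576 percentage points (female minus male) and lay between -1.27 and 0.125 with 1 library left out, turning to 0.125 without female 2. With all libraries it lay between -0.812 and -0.184 in the alternatives. The cause of these changes was not tested. Among named genes 0 reversed in the alternatives run, and the call held in all of them for 37 of 51 against GABA nuclei, 16 of 35 against other glutamate nuclei, 5 of 8 between the sexes and 0 of 3 in the interaction. Depth limited the members: the lowest sum, of female 2, held 505566 UMIs, where 1 UMI is 1.98 CPM.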
